A study of Mus musculus with 12 samples.

Results

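Spheroids of mouse adipose-derived mesenchymal stem cells were set against attached cells of the same kind after 24 h of culture, across all expressed genes. Mesenchymal stem cells of fat are stromal cells that adhere to plastic, secrete matrix and growth factors, and can turn into fat, bone or cartilage cells. The comparison rests on 6 of the 12 libraries of the series, 3 of 3D spheroids (rounded cell aggregates) and 3 of 2D single cells grown attached, both taken at 24 h. All groups, the other 6 libraries at 0 h included, were kept in DMEM with fetal bovine serum and antibiotics, and the labels name no strain, age, genotype or agent. They also do not give the age of the spheroids at 0 h or say whether libraries of a group came from separate cultures, so the p-values speak only to how these libraries vary, and that variation may be technical. In bulk RNA, fewer cells of a type and less RNA per cell cannot be told apart.

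Of 56748 gene IDs in the deposited tables, 14338 passed the filter on low counts and were tested. The tables hold Ensembl gene IDs alone, and no table used here pairs those IDs with names. The gene names below were therefore recalled from the Ensembl catalogue and written down by hand for 966 IDs, so a name can be wrong even where its values are right. They passed only weak checks. Each symbol exists in RefSeq, and 14 names were dropped because the length of the gene or the chromosome of its neighbours in ID order went against them, which left 952. For 50 of the 966 names neither of those checks could be made. A firmer check was open for the cell cycle alone: the mouse marker IDs supplied with scran held 23 of 30 IDs named here as mitotic genes, 21 of 30 named as replication genes and 35 of the other 892. The Ensembl IDs of the genes most relied on are given beside their names.

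Attached cells pull on their substrate through integrins and bundles of actin and myosin. Tension in these fibres is known to free the MRTF coactivators, which with the factor SRF switch on genes of the contractile apparatus, and to keep YAP and TAZ in the nucleus, where they work with TEAD factors. Lysosomes, by contrast, are acidic compartments in which enzymes break down matrix, membranes and organelles, and a proton pump, the vacuolar ATPase, keeps them acid. Their genes share a promoter motif bound by TFEB, TFE3 and MITF.

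The libraries at 24 h held between 11299513 and 17109609 expected counts. Log2 CPM (counts of each library put on one scale by TMM) correlated across genes at 0.976 to 0.984 within a group and at 0.91 to 0.925 between the groups, and the first principal component of the 6 libraries held 72.1% of the variance. The TMM factors were 0.967 to 0.991 in 2D and 1.06 to 1.08 in 3D. No pair of libraries of a group agreed within sampling noise (chi-square per degree of freedom at least 6). Longer genes tended weakly to lower fold changes (Spearman correlation of -0.16 between log2 fold change and effective length, across genes), and the part of this in the results was not tested. RSEM shares out reads that fit several genes, which leaves counts that are not whole, and 18.3% of the tested genes had such counts in at least 6 of the 12 libraries. Among all genes named in the text these were Actg1, Becn1, Bhlhe41, Bnip3l, Cavin1, Ccn2, Ccnd1, Ccnd2, Cdk4, Ctsa, Ctsb, Ftl1, Gadd45a, Gpx1, Hspa1a, Hspa1b, Hspb1, Itga1, Kif20a, Loxl2, Loxl3, Ltbp2, Malat1, Me1, Mmp2, Nid2, Notch1, Notch3, Phgdh, Ppia, Prc1, Prelp, Rbpj, Runx2, Slc16a3, Tagln, Timp3, Twist2 and Vcl, whose levels are uncertain to that extent.

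At 24 h, 2815 genes were higher in 3D (19.6% of those tested) and 3276 were lower (22.8%), 42.5% of the tested genes in all, by edgeR's quasi-likelihood test at an adjusted p under 0.05. At least 2-fold differences numbered 1044 upward (7.28%) and 1535 downward (10.7%). The median log2 fold change of all genes was 0, with quartiles of -0.49 and 0.43. Scaling by library totals instead of TMM moved that median to 0.12 and turned the split to 3648 higher and 2708 lower, so calls on small differences depend on the scaling. A value in brackets marked log2 is the log2 fold change of 3D over 2D at 24 h, and each one set below as higher or lower passed edgeR's test. In the second deposited unit, log2(TPM + 1), limma called 2879 genes higher (20.1%) and 2721 lower (19%). At 0 h, 3309 genes were higher in 3D (23.1%) and 3255 lower (22.7%), and the difference between the times was called for 5610 genes (39.1%). Of the genes called by edgeR at 24 h, 4994 were called by limma in the same direction and 0 in the opposite one.

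**Figure D1:**
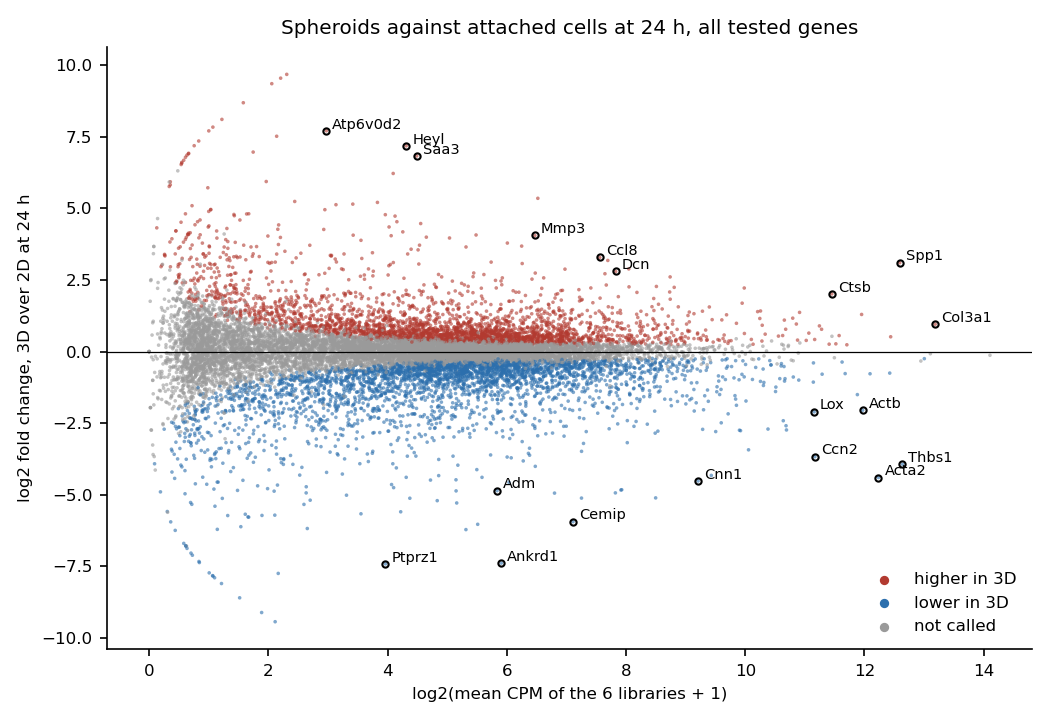
Log2 fold change of 3D over 2D at 24 h (y axis) against log2 of the mean CPM of the 6 libraries plus 1 (x axis) for the 14338 tested genes, with called genes in red (higher in 3D) and blue (lower). Named points show that abundant genes lie on both sides, with Acta2 and Thbs1 below -3.9 and Spp1 above 3.

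Gene lists were described by how many of their tested members were called, to be read against the 19.6% and 22.8% above. The lists with the highest share of members lower in 3D were caveolae, mitosis, the contractile cytoskeleton, replication, YAP and TAZ targets and cholesterol synthesis. Those with the highest share higher in 3D were the vacuolar ATPase and lysosomes. Of 27 genes for cytosolic ribosomal proteins 1 was higher and 0 were lower by edgeR, with a median of 0.01. At an unadjusted p under 0.05 the count was 2 in either direction, and limma called 3 higher and 0 lower. This count leaned on single libraries: 5 were higher without replicate 1 of 2D or of 3D, 0 without replicate 3 of 2D or replicate 2 of 3D, and 4 were lower without the latter.

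**Figure D2:**
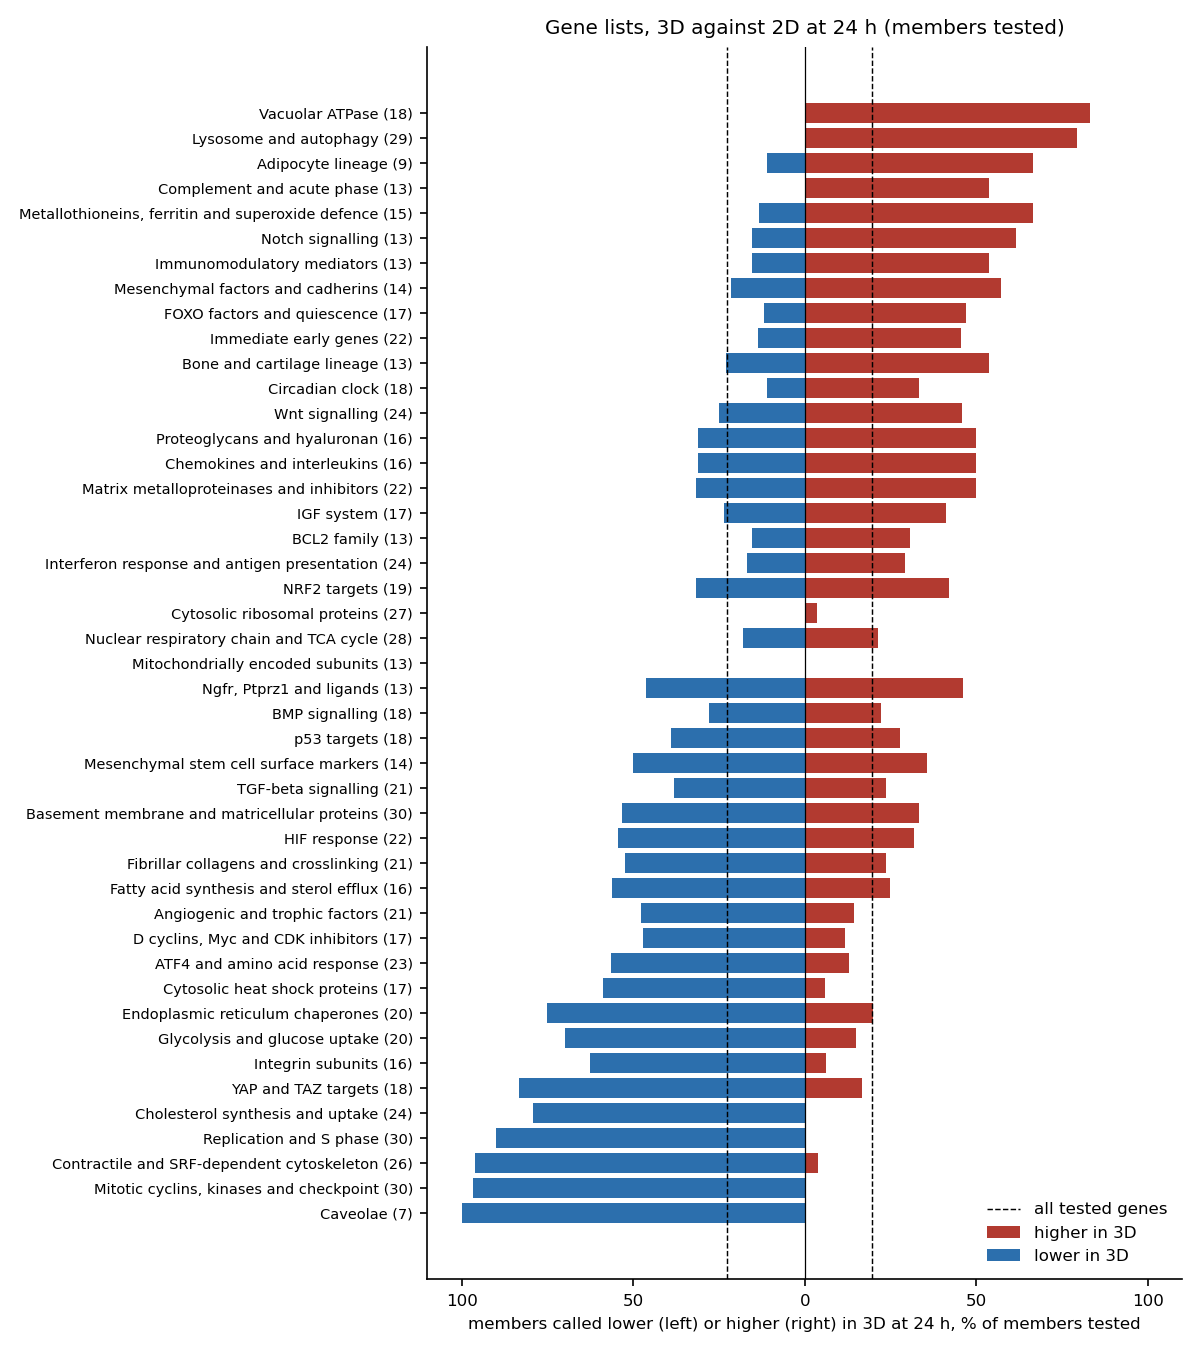
Share of tested members of each gene list called higher (red, to the right) or lower (blue, to the left) in 3D at 24 h by edgeR, in percent, with the number of members tested in brackets and the shares over all tested genes as dashed lines. Caveolae (7 of 7 lower) and the vacuolar ATPase (15 of 18 higher) stand at the ends.

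Genes of the contractile cytoskeleton were lower in the spheroids almost without exception. Of the list's 26 members, 25 were lower in 3D, 22 of them at least 2-fold, 1 was higher, and the median stood at -2.25 on the log2 scale. At 0 h, 19 had been lower with a median of -0.71, and 21 differed between the times. Acta2 (ENSMUSG00000035783), the actin of smooth muscle and of stress fibres in activated fibroblasts, stood at 10012, 8899 and 8693 CPM in 2D and 370.0, 476 and 463 CPM in 3D. The log2 fold change came to -4.40 ± 0.11 (SE), with an edgeR adjusted p of 2.7e-14. It was among the 10 most abundant genes of the attached cells by TPM, at 8029.5 ± 219 TPM in 2D against 387 ± 28.4 TPM in 3D (SD, n = 3). Cnn1 (ENSMUSG00000001349), calponin, which binds actin in smooth muscle, had 1208, 1109 and 1078 CPM in 2D and 41, 53 and 54.4 CPM in 3D. The groups lay far apart for both genes, and no library of one group reached the range of the other, a separation that 52.9% of all tested genes showed in either direction.

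Other members of the contractile set moved the same way by different amounts. Lmod1, which nucleates actin filaments in smooth muscle, had 81.4, 94 and 88.4 CPM in 2D and 1.52, 1.22 and 1.20 CPM in 3D. This amounts on the log2 scale to -6.03 ± 0.19 (SE), with an edgeR adjusted p of 3.2e-13. Actg2 (smooth muscle gamma actin) followed at 757, 669 and 674 CPM in 2D and 17.6, 20.9 and 22.5 CPM in 3D. Myh11, the heavy chain of smooth muscle myosin, had a log2 fold change of -4.87, Myl9 (a myosin light chain) of -4.32 and Tagln (transgelin) of -3.43. Genes that all cells use were lower too, among them Actb (8824, 5250.4 and 5299 CPM in 2D and 1314, 1655 and 1722 CPM in 3D, or log2 -2.05), Flna, which crosslinks actin (log2 -2.71), Tpm1 (log2 -2.74) and Vcl, which links actin to adhesions (log2 -2.78). Srf itself was lower, at a log2 fold change of -1.37, and so was Mrtfa at -0.90. Mrtfb was the 1 member higher in 3D (log2 0.58), and limma did not call it (limma adjusted p = 0.31). 

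Promoter letters of these genes are shown because the set is the one SRF is known to act on. In RefSeq promoters (GRCm38.p6, 250 bases before to 50 after each start), the CArG box that SRF binds was searched on both strands. It was found for 6 of the 22 members with a promoter in the table, or in 25.9% of their 27 promoters, against 1.63% of all 32851. Those 6 were Actg1, Cnn2, Fhl2, Myl9, Srf and Vcl. A match describes the letters only and shows no binding. The box is in capitals in these windows of 3 members that were lower in 3D, at chr2:156775283-156775332 (+ strand), chr14:20929151-20929200 (+ strand) and chr10:79988524-79988573 (+ strand).
Myl9: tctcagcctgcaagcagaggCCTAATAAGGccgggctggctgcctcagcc
Vcl: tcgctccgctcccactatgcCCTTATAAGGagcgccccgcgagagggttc
Cnn2: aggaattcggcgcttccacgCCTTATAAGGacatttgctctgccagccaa

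Of 18 genes listed as YAP and TAZ targets or partners, 15 were lower in 3D and 3 higher, with a median of -1.45, and 13 had been lower at 0 h with a median of -1.15. Ankrd1 (ENSMUSG00000024803), a nuclear ankyrin repeat protein often used as a YAP reporter gene, had 124, 116 and 112 CPM in 2D and 0.272, 1.06 and 0.897 CPM in 3D. On the log2 scale the change was -7.39 ± 0.25 (SE), with an edgeR adjusted p of 4.5e-13. Ccn2 (ENSMUSG00000019997), a matricellular protein also known as connective tissue growth factor, had 4205, 4479.7 and 4106 CPM in 2D and 361, 318 and 324 CPM in 3D. The fitted log2 difference was -3.67 ± 0.10 (SE), with an edgeR adjusted p of 2.7e-14. All 3 spheroid libraries were low for both genes, below the lowest attached library. Groups without overlap were seen for 52.9% of all tested genes, in either direction. Amotl2, which binds YAP at cell junctions, fell to 16.2 ± 1.26 CPM (SD, n = 3) in 3D from 464 ± 86.7 CPM (SD, n = 3) in 2D. Ccn1, a relative of Ccn2, had a log2 fold change of -2.76 and Crim1, a membrane protein with repeats that bind growth factors, of -4.01. The transcripts of Yap1 (log2 -1.41) and Tead1 (log2 -1.18) were lower as well, whereas Wwtr1, which encodes TAZ, was higher (log2 0.37).

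The letters GGAATG, the core that TEAD factors bind, were present on either strand in promoters of 10 of the 14 members in the table, and in 68.8% of their 16 promoters against 14.7% of all. The windows of 2 members with large differences carry the match in capitals, Ankrd1 at chr19:36119942-36119987 (- strand) and Amotl2 at chr9:102717719-102717764 (+ strand), the latter as CATTCC, the same letters on the other strand.
Ankrd1: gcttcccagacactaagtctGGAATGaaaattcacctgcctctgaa
Amotl2: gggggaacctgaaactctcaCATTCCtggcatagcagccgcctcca

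Caveolae, small pits of the plasma membrane that flatten under tension, had all 7 tested members lower, with a median of -1.27. Cavin2, a coat protein, had 200.1, 219.8 and 222 CPM in 2D and 7.57, 6.77 and 6.43 CPM in 3D. In log2 units the groups differed by -4.94 ± 0.16 (SE), with an edgeR adjusted p of 4e-13. Cavin1 (log2 -1.98) and the ATPase Ehd2 (log2 -1.97) changed less, and the main structural protein Cav1 least, at -0.52. Of 16 integrin subunits tested, 10 were lower and 1 was higher. Itga11, a subunit of a collagen receptor, had 178, 231 and 225 CPM in 2D and 34.5, 36.4 and 33 CPM in 3D. Itga1 (log2 -2.99) and Itga8 (log2 -3.48) were lower by more, and the shared partner Itgb1 by less (log2 -1.18). Itgb3 was the 1 subunit called higher, at 21.9, 24.7 and 27.3 CPM in 2D and 64.4, 56.3 and 68.7 CPM in 3D. Some junction genes were lower too. Cdh3 (P-cadherin) stood at 65.1, 75.8 and 62.2 CPM in 2D and 1.36, 2.20 and 1.72 CPM in 3D, and Ctnnd1, a catenin that stabilises cadherins, had a log2 fold change of -2.15. Gjb2, a gap junction subunit, had 54.3, 55.1 and 51.3 CPM in 2D and 1.69, 0.897 and 1.64 CPM in 3D. Of 14 mesenchymal factors and cadherins tested, 8 were higher and 3 lower. The transcription factors Snai1 (log2 1.05), Zeb1 (log2 1.05) and Twist2 (log2 0.72) were higher. A cadherin of that list was also called higher, so its cadherins went both ways.

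**Figure D3:**
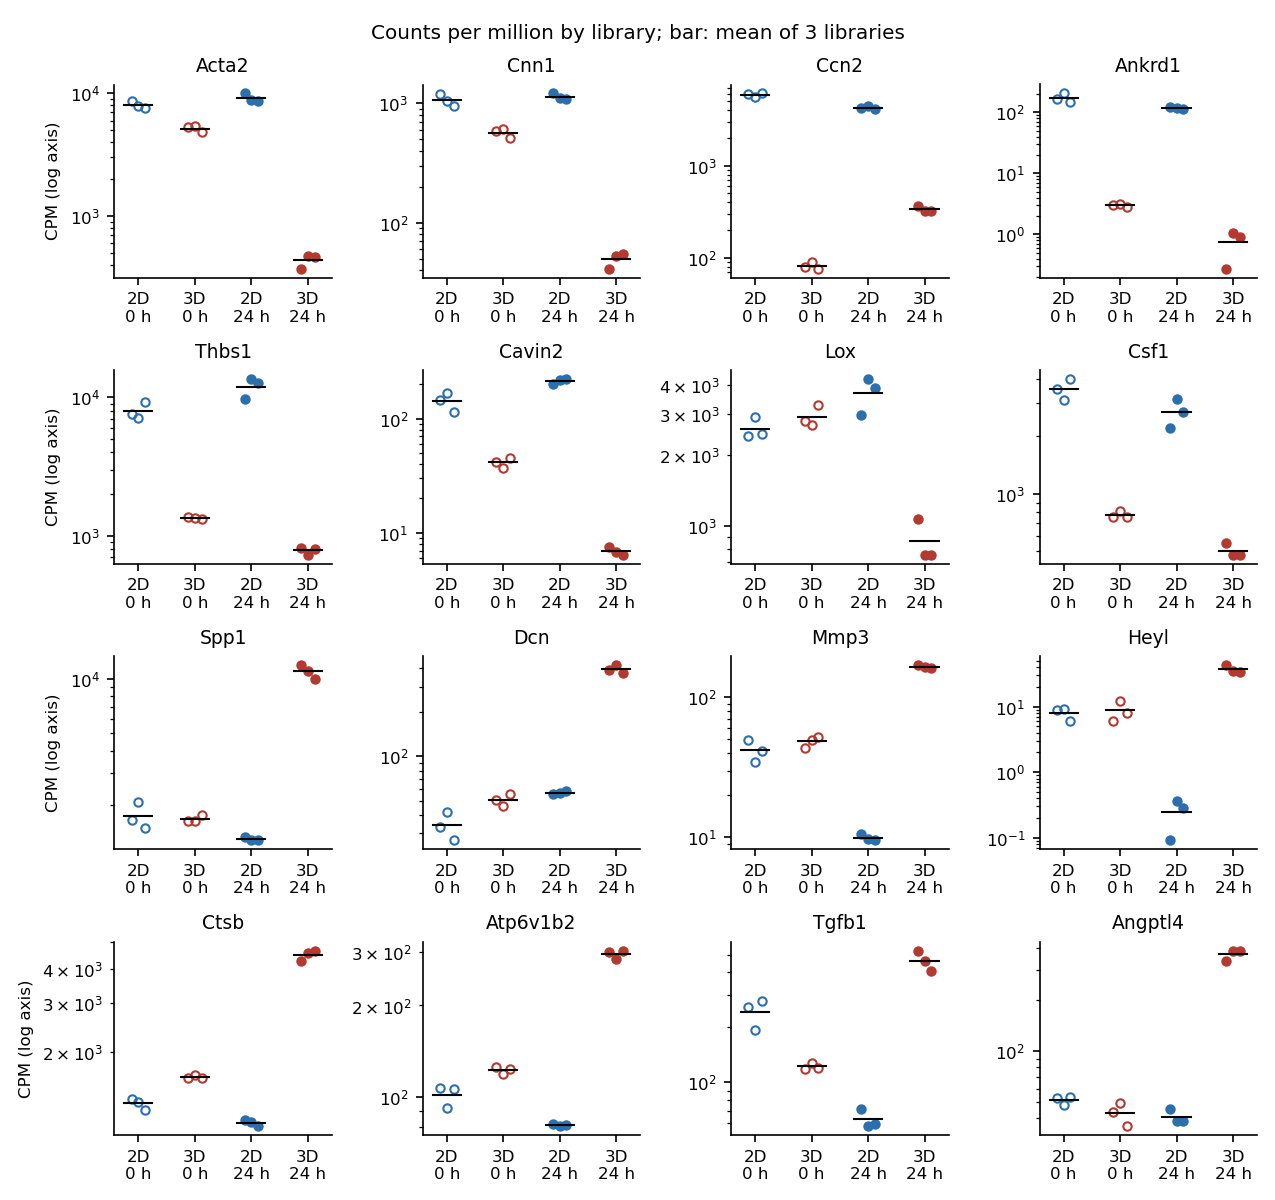
CPM on log axes of 16 genes in each of the 12 libraries, by culture and time (2D in blue, 3D in red, open at 0 h and filled at 24 h), with the mean of 3 libraries as a bar. The 16 genes were picked by hand from called genes named in the text. At 24 h the 3 libraries of each culture lie together and apart from the other culture in every panel. No overlap between the cultures at 24 h was seen for 52.9% of all tested genes, in either direction.

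Matrix genes split rather than moved as a block. Of 21 genes for fibrillar collagens and their crosslinking, 11 were lower and 5 higher. Col1a1, the main chain of collagen I, did not pass the test (17250.0, 19026 and 18918 CPM in 2D and 22729, 15175 and 12618 CPM in 3D; edgeR adjusted p = 0.6). Col3a1, which builds the thinner fibrils of collagen III, was higher, at 5076, 7019.5 and 6910.2 CPM in 2D and 12757, 12469 and 11659 CPM in 3D. Lox, lysyl oxidase, which crosslinks collagen and elastin, had 2981, 4232 and 3884 CPM in 2D and 1069.5, 755 and 756 CPM in 3D. That is a log2 change of -2.10 ± 0.15 (SE), with an edgeR adjusted p of 5.2e-09. Its relatives Loxl2 (log2 -1.64), Loxl3 (log2 -1.69) and Loxl4 (log2 -2.11) were lower, and Loxl1 was slightly higher (log2 0.48). Col11a1, a minor fibrillar chain, had a log2 fold change of -3.65 and Col5a3 one of 2.07.

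Secreted matrix proteins outside the fibrils held large differences at high levels. Spp1 (ENSMUSG00000029304), osteopontin, a phosphoprotein that binds integrins, had 1319, 1266 and 1265 CPM in 2D and 11989, 11112 and 10048 CPM in 3D. Its log2 fold change was 3.11 ± 0.12 (SE), with an edgeR adjusted p of 1.4e-12. By mean TPM it rose from 1712 ± 94.9 (SD, n = 3) in 2D to 15229.8 ± 2305 (SD, n = 3) in 3D and was the most abundant of the named transcripts of the spheroids. Thbs1 (ENSMUSG00000040152), thrombospondin, went the other way with 9729.5, 13538 and 12591 CPM in 2D and 813, 728 and 807 CPM in 3D. The log2 fold change came to -3.93 ± 0.13 (SE), with an edgeR adjusted p of 4e-13. Of the 30 basement membrane and matricellular genes tested, 16 were lower and 10 higher. The lower ones included Col8a1 (log2 -2.41), Col12a1 (log2 -2.08), both chains of collagen IV (log2 -1.24 for Col4a1 and log2 -1.23 for Col4a2) and fibronectin, Fn1 (log2 -0.77). Elastin, Eln (log2 3.11), periostin, Postn (log2 1.30), Col15a1 (log2 2.08) and the collagen VI chains Col6a1 (log2 1.17) and Col6a2 (log2 1.16) were higher.

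Small proteoglycans that coat collagen were divided in the same manner, with 8 of 16 genes of the proteoglycan and hyaluronan list higher and 5 lower. Dcn (ENSMUSG00000019929), decorin, had 55.6, 56.1 and 58.5 CPM in 2D and 389, 422 and 374 CPM in 3D. This amounts on the log2 scale to 2.80 ± 0.14 (SE), with an edgeR adjusted p of 6.7e-11. Lum, lumican, had 0.726, 0.9 and 0.352 CPM in 2D and 11.7, 14.1 and 12 CPM in 3D, so that it was near 0 in the attached cells. Prelp (log2 -2.61), Ogn (log2 -2.12) and Fmod (log2 -0.84), which are of the same leucine-rich family, were lower. Cemip, which is needed for the breakdown of hyaluronan, had 223, 304 and 283 CPM in 2D and 4.36, 4.32 and 4.48 CPM in 3D. On the log2 scale the change was -5.94 ± 0.21 (SE), with an edgeR adjusted p of 6.3e-13.

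Enzymes that cut matrix were more often higher than lower. Of 22 genes for metalloproteinases and their inhibitors, 11 were higher and 7 lower, with a median of 0.48. Mmp3 (ENSMUSG00000043613), stromelysin, had 10.5, 9.81 and 9.51 CPM in 2D and 171, 164 and 161 CPM in 3D. The fitted log2 difference was 4.06 ± 0.15 (SE), with an edgeR adjusted p of 9.7e-13. Mmp13, a collagenase, had 3.90, 2.97 and 4.51 CPM in 2D and 60.9, 56.1 and 62.9 CPM in 3D. The gelatinase Mmp9 had 0.998, 3.78 and 1.13 CPM in 2D and 48.1, 45.8 and 35.3 CPM in 3D. Mmp2 (361, 359.9 and 349.7 CPM in 2D and 1711, 1591 and 1694 CPM in 3D) and Mmp14 (1096, 1085 and 1040.3 CPM in 2D and 3214, 2505 and 2607 CPM in 3D), which activates Mmp2 at the cell surface, were abundant in both cultures and higher in 3D. The inhibitor Timp3 was lower (2440.4, 3183 and 2836 CPM in 2D and 471, 448 and 487 CPM in 3D), Timp2 was higher (log2 0.78) and Timp1 did not pass the test (log2 0.19; edgeR adjusted p = 0.31). Adamts5 (log2 -3.68) and Adamts1 (log2 -2.34), which cut proteoglycans, were lower.

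Lysosomal genes were higher in the spheroids almost throughout. Of 29 genes for lysosomes and autophagy, 23 were higher and 0 lower, with a median of 0.91, and at an unadjusted p under 0.05 the count lower was 0. By limma 22 were higher and 0 lower. At 0 h 16 had been higher, with a median of 0.31, and 20 differed between the times. Ctsb (ENSMUSG00000021939), the protease cathepsin B, had 1134, 1118 and 1076 CPM in 2D and 4274, 4549.9 and 4651 CPM in 3D. In log2 units the groups differed by 2.02 ± 0.08 (SE), with an edgeR adjusted p of 2.4e-12. Ctsk, cathepsin K, which digests collagen, had 171, 157 and 158 CPM in 2D and 678, 682 and 699 CPM in 3D. Gla, alpha-galactosidase, had 21.4, 14.7 and 18 CPM in 2D and 97.2, 92.2 and 109.6 CPM in 3D. Lamp2, a protein of the lysosomal membrane, was higher (log2 1.29), and so were the transcription factors Mitf (log2 2.04), Tfeb (log2 0.82) and Tfe3 (log2 0.34), the last not by limma (limma adjusted p = 0.069). Genes for starting autophagy, Ulk1 (log2 0.11) and Becn1 (log2 0.11), did not pass the test.

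The vacuolar ATPase followed the lysosomes, with 15 of its 18 subunits higher and 0 lower and a median of 0.86, also with Atp6v0d2 set at the lower end of its counting interval. By limma the counts were 15 and 0, at an unadjusted p under 0.05 edgeR had 1 lower, and in a fit to the 6 libraries at 24 h alone 1 was called lower. The 0 h counts were 4 higher and 6 lower with a median of -0.03, and 13 differed between the times. Atp6v1b2 (ENSMUSG00000006273), a subunit of the part that splits ATP, had 81.7, 80.3 and 80.8 CPM in 2D and 299, 285 and 303 CPM in 3D. That is a log2 change of 1.87 ± 0.10 (SE), with an edgeR adjusted p of 9.7e-11. Atp6v0d2 (ENSMUSG00000028238), an alternative form of subunit d known from osteoclasts and macrophages, had 0.181, 0 and 0 CPM in 2D and 14.4, 14.2 and 12.3 CPM in 3D. With 2 counts over the 2D libraries the counts of 3D over 2D gave a ratio of 249 (exact 95% interval 68.6 to 2060, for counting error only). The common form Atp6v0d1 had 131, 122 and 109.7 CPM in 2D and 263, 281 and 272 CPM in 3D. Subunits Atp6v0a1 (log2 -0.24), Atp6v0a2 (log2 -0.32) and Tcirg1 (log2 -0.06), which are alternative forms of subunit a, did not pass the test. Of 12 macrophage markers 5 were tested, of which 1, Cd68 (log2 1.69), was higher by edgeR and limma and 0 were lower, and the markers summed to 26.7 to 32.2 CPM in 2D and 33.6 to 38.7 CPM in 3D. Ptprc, Adgre1, C1qa, C1qb and Aif1 had 0 counts in all 6 libraries. The part of these markers in the result was not tested.

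The letters TCACGTGA, which read the same on both strands and form the core of the motif that TFEB, TFE3 and MITF bind, stood in 4 of the 29 promoters of lysosomal genes (13.8%) and in 3 of the 16 of the vacuolar ATPase (18.8%), against 0.974% of all promoters. Here too the letters show no binding and do not bear on the difference between the cultures. Windows around the match, in capitals, are given for Gla at chrX:134601173-134601220 (- strand), Ctsa at chr2:164833740-164833772 (+ strand) and Atp6v1a at chr16:44139364-44139411 (- strand), which were higher in 3D by log2 fold changes of 2.47, 1.32 and 0.45.
Gla: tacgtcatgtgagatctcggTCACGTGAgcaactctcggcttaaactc
Ctsa: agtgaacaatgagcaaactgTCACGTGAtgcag
Atp6v1a: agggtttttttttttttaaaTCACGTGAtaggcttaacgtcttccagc

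**Figure D4:**
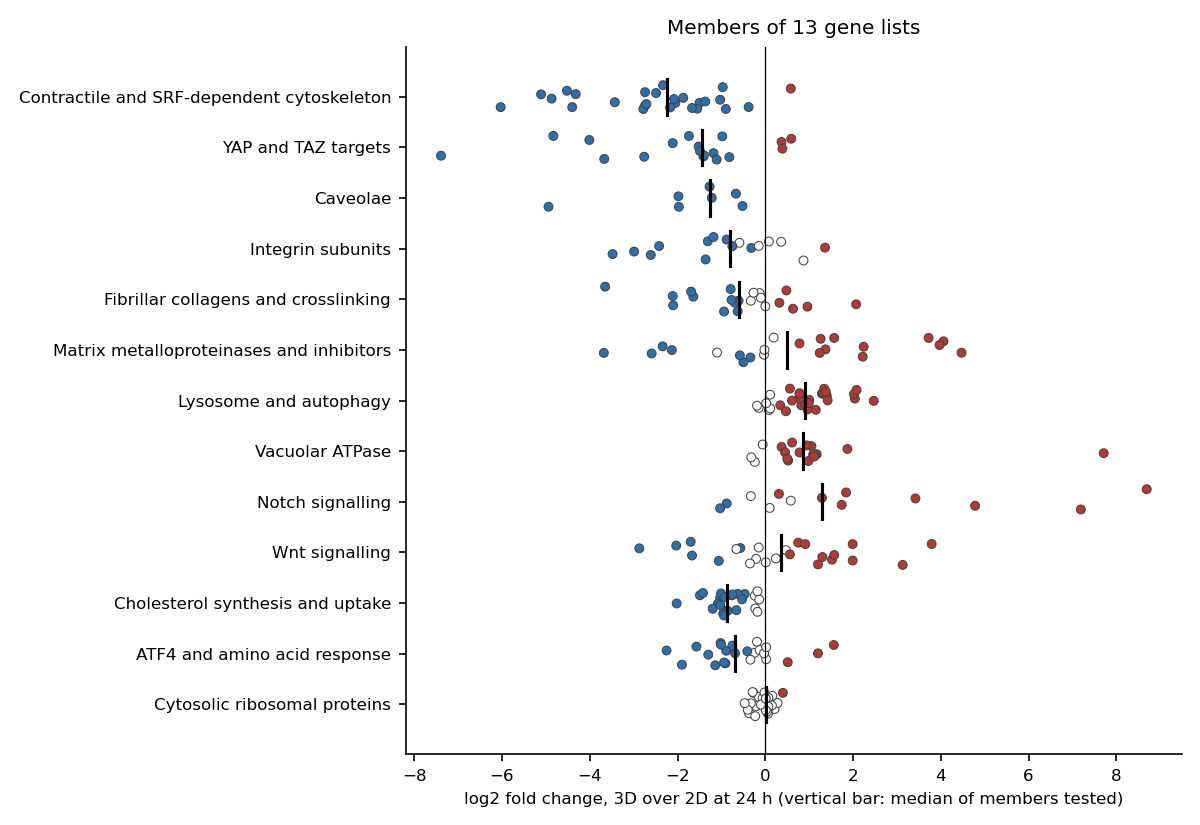
Log2 fold change of 3D over 2D at 24 h for each tested member of 13 gene lists, filled where called by edgeR (red higher, blue lower) and open where not, with the median of each list as a vertical bar. Nrarp and Atp6v0d2, with 0 and 2 counts in 2D, are drawn at their fitted values. The contractile list has its median at -2.25 and the ribosomal proteins at 0.01.

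Signalling pathways differed by gene rather than as wholes. Notch passes signals between touching cells, where ligands such as Jag1 cut loose a receptor fragment that switches on Hey and Hes genes. Of 13 Notch genes tested, 8 were higher and 2 lower, with a median of 1.29, also with Nrarp at its bound. Heyl (ENSMUSG00000032744), a target, had 0.0907, 0.36 and 0.282 CPM in 2D and 43.5, 35.1 and 33.8 CPM in 3D. Its log2 fold change was 7.19 ± 0.38 (SE), with an edgeR adjusted p of 1.2e-10. Hey1, of the same family, had 0.454, 1.35 and 1.20 CPM in 2D and 27.3, 27.3 and 29.9 CPM in 3D. The ligand Jag1 had 16.1, 22.3 and 23.3 CPM in 2D and 86.7, 67.4 and 68 CPM in 3D. Nrarp, a target that dampens the pathway, had 0 counts in 2D and 3.98 ± 1.35 CPM (SD, n = 3) in 3D, at least 48.4-fold higher when the 2D group is given a floor of 3 counts in all (edgeR adjusted p = 1.7e-05). The receptors Notch1 (log2 1.74) and Notch3 (log2 1.29) were higher, whereas Rbpj, the DNA-binding partner of the receptor fragments, was lower (log2 -1.03).

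In the Wnt list, 11 of 24 genes were higher and 6 lower. The targets and effectors Tcf7 (log2 3.13), Lef1 (log2 1.57) and Axin2 (log2 1.99) were higher, the last from a low level (0.363, 0.63 and 0.563 CPM in 2D and 2.18, 1.96 and 2.17 CPM in 3D). Secreted antagonists went both ways. Sfrp4 had 7.80, 8.19 and 9.51 CPM in 2D and 105, 129 and 120.4 CPM in 3D, while Sfrp1 had 932, 1079 and 1024 CPM in 2D and 248, 235 and 259 CPM in 3D. Dkk2, another antagonist, had a log2 fold change of -2.87. The receptors Fzd7 (log2 -1.67) and Fzd2 (log2 -1.06) were lower.

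Of 21 TGF-beta genes, 5 were higher and 8 lower. The ligand Tgfb1 (ENSMUSG00000002603) had 71.5, 57.5 and 58.9 CPM in 2D and 526, 459 and 406 CPM in 3D. The log2 fold change came to 2.89 ± 0.15 (SE), with an edgeR adjusted p of 7.3e-11. Tgfbi, a matrix protein named for its induction by TGF-beta, was higher (log2 2.72), but Ccn2, also known to respond to TGF-beta, was lower. Ltbp2, of the family that binds latent TGF-beta, had a log2 fold change of -2.54, and Fst, follistatin, of -1.81. The BMP list had 4 higher and 5 lower of 18, close to the shares over all genes, with Id1 (log2 0.61) and Id3 (log2 0.45) higher, Id4 lower (log2 -1.50) and the antagonist Grem1 higher (log2 1.34).

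Secreted immune genes were divided. Of 16 chemokines and interleukins tested, 8 were higher and 5 lower. Ccl8, which draws monocytes, had 44.8, 30.1 and 29.8 CPM in 2D and 219.5, 460.4 and 341 CPM in 3D. This amounts on the log2 scale to 3.29 ± 0.23 (SE), with an edgeR adjusted p of 3.2e-09. Il6, a cytokine of acute inflammation, had 5.53, 8.82 and 10.1 CPM in 2D and 40.2, 38 and 30.1 CPM in 3D. Ccl11, eotaxin, had 8.80, 8.01 and 9.08 CPM in 2D and 29.5, 42.7 and 38 CPM in 3D. In each of these genes the 3 spheroid libraries lay above all attached ones, where 52.9% of all tested genes had no overlap in either direction. Csf1 (ENSMUSG00000014599), the growth factor of macrophages, had 2213, 3138 and 2694 CPM in 2D and 549.5, 479 and 480.3 CPM in 3D. On the log2 scale the change was -2.41 ± 0.12 (SE), with an edgeR adjusted p of 9.4e-11. Ccl2 (log2 -0.91), Ccl7 (log2 -0.86) and Cxcl14 (log2 -1.24) were lower. Saa3, an acute phase protein, had 0.454, 0.63 and 0.0704 CPM in 2D and 23, 56.1 and 48.4 CPM in 3D, so that the highest spheroid library was well above the lowest of its own group. Of 13 complement and acute phase genes, Saa3 among them, 7 were higher and 0 lower, by limma too and also at an unadjusted p under 0.05. Of 13 mediators by which stromal cells are known to act on immune cells, 7 were higher and 2 lower; Tnfaip6 (log2 1.19) was higher and Lgals1 (log2 -0.94) lower.

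Growth factors for vessels and nerves were more often lower, 10 of 21 against 3 higher. Bdnf (log2 -2.21), Vegfd (log2 -1.79) and Pdgfd (log2 -1.73) were lower, and Vegfa a little (350.4, 365 and 379 CPM in 2D and 289.9, 249 and 237 CPM in 3D). Angptl4 (ENSMUSG00000002289), a secreted inhibitor of lipoprotein lipase, was the exception in size, at 45.2, 38.9 and 38.5 CPM in 2D and 338, 389 and 387 CPM in 3D. The fitted log2 difference was 3.19 ± 0.13 (SE), with an edgeR adjusted p of 4.3e-12. Receptors of neurotrophins and pleiotrophin went in opposite directions, with 6 of 13 genes of that list higher and 6 lower. Ngfr had 0.726, 1.53 and 3.73 CPM in 2D and 16.1, 12.6 and 16.6 CPM in 3D, and the phosphatase Ptprz1 had 21, 35 and 31.1 CPM in 2D and 0.0545, 0.245 and 0.224 CPM in 3D (log2 -7.42). Ptn, pleiotrophin, a ligand of Ptprz1, was higher (log2 1.28).

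Genes of sterol and lipid synthesis were mostly lower. Of 24 genes for cholesterol synthesis and uptake, 19 were lower and 0 higher, with a median of -0.87. By limma 17 were lower and 0 higher, and 0 were higher at an unadjusted p under 0.05. At 0 h 18 had been lower and 0 higher. Sqle, squalene epoxidase, had 144, 164 and 158 CPM in 2D and 69.6, 59.9 and 72.9 CPM in 3D. In log2 units the groups differed by -1.20 ± 0.11 (SE), with an edgeR adjusted p of 7.3e-08. Of 16 genes for fatty acid synthesis and sterol efflux, 9 were lower and 4 higher. Fasn (log2 -1.34), Acly (log2 -1.16) and the desaturase Fads2 (log2 -1.73) were lower, while the genes of sterol export Abca1 (log2 1.35), Abcg1 (log2 1.91) and Apoe (log2 2.09) were higher. Plin2, which coats lipid droplets, had 167, 145 and 146 CPM in 2D and 501, 577 and 578 CPM in 3D.

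Glycolysis genes were mostly lower in spheroids at 24 h, although all 20 tested had been higher in 3D at 0 h. Of 20 genes, 14 were lower and 3 higher at 24 h, with a median of -0.54, against 20 higher and 0 lower at 0 h with a median of 1.13. The difference between the times was called for 19 of them. Hk1, hexokinase, had 129, 161 and 156 CPM in 2D and 52.5, 56.4 and 60.9 CPM in 3D at 24 h. Its 3D over 2D log2 fold change was -1.39 ± 0.14 (SE) at 24 h and 2.01 ± 0.14 (SE) at 0 h, a difference of -3.40 between the times (edgeR adjusted p = 1.3e-09). Ldha, which makes lactate, had 2626, 2183 and 2159 CPM in 2D and 1114, 1349 and 1304 CPM in 3D. The glucose transporter Slc2a1 had 211, 193 and 199 CPM in 2D and 108, 109 and 116 CPM in 3D. Both genes were lower in every spheroid library than in any attached one, a lack of overlap shared in either direction by 52.9% of all tested genes. Eno2, an enolase, was 1 of the 3 that were higher at 24 h, with log2 fold changes of 1.53 at 24 h and 3.11 at 0 h.

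Genes switched on by HIF, the factor of oxygen shortage, also turned in part. Of 22, 12 were lower and 7 higher at 24 h, whereas 20 were higher and 0 lower at 0 h with a median of 2.21. Adm, adrenomedullin, had 118, 105 and 103 CPM in 2D and 2.89, 4.0 and 4.48 CPM in 3D at 24 h. Its 3D over 2D log2 fold change was -4.86 ± 0.15 (SE) at 24 h and 0.43 ± 0.12 (SE) at 0 h, a difference of -5.28 between the times (edgeR adjusted p = 5.6e-12). Egln1, an oxygen sensor that marks HIF for destruction, had 131, 117 and 109 CPM in 2D and 28.5, 19.3 and 20.8 CPM in 3D. Ndrg1 (log2 1.74), Ddit4 (log2 1.20) and Bnip3l (log2 1.01) were higher in 3D at both times, by less at 24 h than at 0 h, where their log2 fold changes were 4.96, 4.02 and 1.83 (edgeR adjusted p of the difference = 2.3e-09, 5.6e-08 and 0.00039). The 13 subunits encoded in mitochondria had 0 calls in either direction by edgeR, 4 at an unadjusted p under 0.05 and 1 lower by limma. Without replicate 2 of 3D, 5 of them were called lower. Nuclear genes of the respiratory chain and the TCA cycle had 6 higher and 5 lower of 28, close to the shares over all genes, and 2 higher without replicate 3 of 2D or replicate 2 of 3D.

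**Figure D5:**
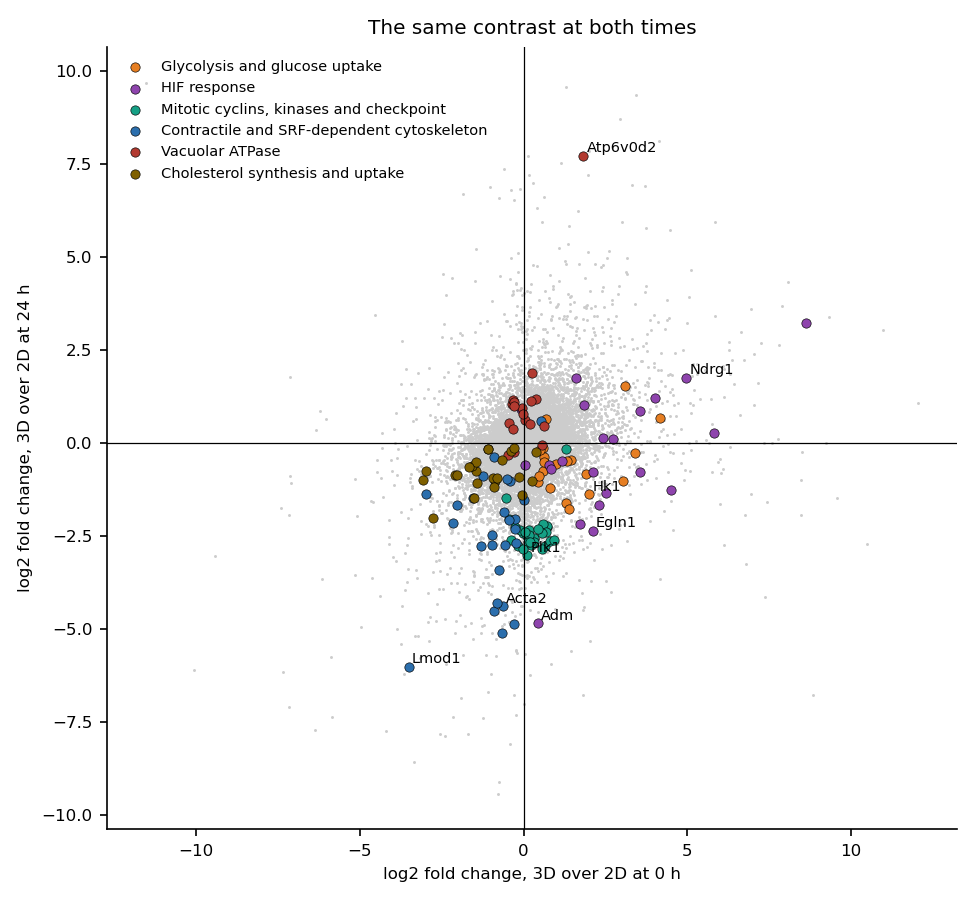
Log2 fold change of 3D over 2D at 24 h (y axis) against that at 0 h (x axis) for all tested genes (grey) and the members of 6 lists (coloured). Glycolysis and HIF genes lie mostly right of 0 on the x axis and below 0 on the y axis. Mitotic genes have a median of 0.21 at 0 h, with 12 called higher and 3 lower, and of -2.5 at 24 h.

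Genes of amino acid supply and protein folding were mostly lower. In the ATF4 list, 13 of 23 were lower and 3 higher. Psat1 (392, 348 and 343 CPM in 2D and 74.3, 75.8 and 76.8 CPM in 3D) and Phgdh (log2 -1.57), enzymes of serine synthesis, and the amino acid transporter Slc7a5 (log2 -1.30) were lower. Of 20 chaperones and regulators of the endoplasmic reticulum, 15 were lower and 4 higher, with a median of -0.47. Hyou1 had a log2 fold change of -1.39 and Hspa5 of -0.42, while the regulators Xbp1 (log2 0.90) and Dnajb9 (log2 1.15) were higher. Of 17 cytosolic heat shock genes, 10 were lower and 1 higher. Hspb1 had 394, 291 and 313 CPM in 2D and 109, 156 and 135 CPM in 3D. Hspa1b (log2 -2.03) and Hspa1a (log2 -1.40) are near-identical copies whose reads were shared, so that only their fall together is measured.

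Genes of metal handling and superoxide defence were mostly higher, 10 of 15 against 2 lower, and the number higher ranged from 7 to 11 over the alternative settings. The metallothioneins Mt1 (96, 45 and 60.9 CPM in 2D and 198, 477 and 338 CPM in 3D) and Mt2 (log2 2.39), which bind zinc and copper, were higher, as were the iron exporter Slc40a1 (1.09, 0.99 and 1.97 CPM in 2D and 35.3, 30.2 and 31.4 CPM in 3D) and ferritin heavy chain, Fth1 (log2 0.90). Tfrc, which takes up iron, was lower (log2 -1.70). The other gene called lower was Gpx1, a glutathione peroxidase (log2 -0.38; edgeR adjusted p = 0.045), which lost its call under limma (limma adjusted p = 0.059), with library totals (edgeR adjusted p = 0.15) and without replicate 1 or 3 of either culture (edgeR adjusted p = 0.079 to 0.32), among others, leaving 1 gene lower. NRF2 targets had 8 higher and 6 lower of 19 (3 lower without replicate 1 of 2D), with Prdx1 higher (log2 1.10) and Me1 lower (log2 -0.94).

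Division genes were lower in the spheroids almost throughout. Of 30 mitotic genes, 29 were lower, each at least 2-fold, and 0 were higher, by limma too and also at an unadjusted p under 0.05. Their median log2 fold change was -2.50 at 24 h, against 0.21 at 0 h, and all 30 differed between the times. At 0 h 12 had been higher in 3D and 3 lower. Plk1, a kinase of mitotic entry, had 101, 118 and 129 CPM in 2D and 12.7, 13.5 and 16.4 CPM in 3D. That is a log2 change of -3.03 ± 0.15 (SE), with an edgeR adjusted p of 5.6e-11. Of 30 replication genes, 27 were lower, among them Rrm2 (479.9, 488 and 484 CPM in 2D and 87.6, 83.8 and 96.5 CPM in 3D), which makes deoxynucleotides. Ccnd1, cyclin D1, was lower (35.8, 26.4 and 29.2 CPM in 2D and 4.36, 6.44 and 4.56 CPM in 3D), while its kinase Cdk4 was higher (log2 0.62). The letters TTTGAA, the core of the CHR element of genes expressed late in the cell cycle, were found on either strand in 66.7% of the 24 promoters of the mitotic genes and in 17.9% of all. These letters show no binding and do not bear on the difference between the cultures. The match is in capitals for Prc1, which crosslinks spindle microtubules, at chr7:80294426-80294471 (+ strand), and for Cdc20, an activator of the ligase that ends mitosis, at chr4:118437344-118437381 (- strand).
Prc1: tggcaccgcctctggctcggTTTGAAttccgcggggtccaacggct
Cdc20: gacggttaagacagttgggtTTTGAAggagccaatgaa

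Immediate early genes, which answer growth signals within minutes, had 10 of 22 higher and 3 lower. Egr1 had 51.1, 76.7 and 73.7 CPM in 2D and 269, 220.5 and 198 CPM in 3D. Egr2 had 16.3, 20.9 and 21.6 CPM in 2D and 92.4, 113 and 91.7 CPM in 3D. Fos was higher with a wide spread in 3D (12, 20.5 and 17 CPM in 2D and 104, 88.2 and 37.7 CPM in 3D). Genes controlled by FOXO factors or known from quiescent cells had 8 of 17 higher and 2 lower, with Klf9 (log2 1.66), Irs2 (log2 1.49) and Sesn1 (log2 1.12) higher and Cited2 (log2 -2.42) lower. At 0 h 12 of the list had been higher and 2 lower, with a median of 1.44 against 0.82 at 24 h.

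Among tested genes of the lineages these cells can enter, more were called higher than lower. Of 9 adipocyte lineage genes tested, 6 were higher and 1 lower. Cebpb (418, 290.3 and 315 CPM in 2D and 1137, 961 and 919 CPM in 3D) and Zfp423 (log2 1.47), early factors of that lineage, were higher, while Pparg, the main regulator of fat cells, was the lower one (log2 -0.79). At 0 h 5 genes of that list had been higher and 2 lower. Of 4 markers of mature adipocytes tested at 24 h, 0 were higher and 1 lower by edgeR, and 0 and 2 by limma. Of 13 bone and cartilage genes, 7 were higher, Runx2 (29.4, 28.2 and 29.2 CPM in 2D and 71.7, 64.7 and 59.4 CPM in 3D) and Sp7 (log2 1.04) with Spp1 among them, and 3 lower (1 with a minimum count of 50). Of 17 genes of the IGF system 7 were higher and 4 lower. The binding proteins Igfbp4 (log2 1.11), Igfbp5 (log2 1.20) and the ligand Igf1 (log2 0.94) were higher and the receptor Igf1r (log2 -1.08) lower.

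The label of the cells was checked against marker lists. Among surface markers of mesenchymal stem cells, 14 of 16 passed the filter, with 5 higher and 7 lower in 3D, and Nt5e and Lepr were not tested. Cd34 (2.27, 0.9 and 0.775 CPM in 2D and 11.2, 15.4 and 13.5 CPM in 3D) and Anpep, also known as CD13 (5.53, 3.78 and 5.35 CPM in 2D and 119, 64.8 and 63.7 CPM in 3D), were higher. Mcam (log2 -3.65), Thy1 (log2 -0.56) and Ly6a, also known as Sca-1 (log2 -0.67), were lower, though limma did not call Thy1 (limma adjusted p = 0.37), and edgeR did not call it without any 1 of the libraries other than replicate 2 of 3D (edgeR adjusted p = 0.052 to 0.095). The 10 markers of fibroblasts and stroma summed to 26453 to 29329 CPM in 2D and 19862 to 32656 CPM in 3D, and 5 of them were higher, 4 at least 2-fold, and 2 lower, with a median of 0.88 (0.09 with Dpp4, which has 3 counts over the 2D libraries, set at the lower end of its counting interval). The 12 macrophage markers summed to 26.7 to 32.2 CPM in 2D and 33.6 to 38.7 CPM in 3D, and Ptprc, Adgre1, C1qa, C1qb and Aif1 had 0 counts in all 6 libraries. Of the 5 tested, Cd68, a lysosomal membrane protein, was higher (1.45, 1.26 and 1.20 CPM in 2D and 3.32, 5.87 and 3.51 CPM in 3D; limma adjusted p = 0.002) and 0 were lower, by limma too and also at an unadjusted p under 0.05 in edgeR. Endothelial markers summed to 7.44 to 12.9 and 4.86 to 5.01 CPM, and those of mature adipocytes to 37.2 to 43.2 and 27.6 to 31.2 CPM with Cidec, Lep and Cfd at 0. The 8 lymphocyte markers summed to 0 to 0.81 and 0 to 0.436 CPM.

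Beside the fall of the contractile genes stand the 10 markers of pericytes and smooth muscle, which share Actg2, Myh11, Cnn1 and Des with that list and summed to 2449.9 to 2498 CPM in 2D and 574 to 642 CPM in 3D. Of the other markers of that list, Pdgfrb was not called (log2 -0.16), and Cspg4 (log2 0.70) and Notch3 (log2 1.29) were higher in 3D. Of 9 markers of epithelium and mesothelium only Krt19 passed the filter, and it was lower in 3D (70.8, 60.5 and 66.3 CPM in 2D and 1.31, 2.69 and 5.16 CPM in 3D), with Cdh1 and Krt14 at 0 in all 6 libraries. Whether a change in the mix of cells has a part in these differences was not tested.

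The genes with the largest differences, by the rule given under the processing, held several of no list. Among those higher in 3D, Plxdc1, a membrane protein first known from vessels of tumours, had 0.544, 0.45 and 0.282 CPM in 2D and 31.5, 31.5 and 32.2 CPM in 3D. Scin, which severs actin filaments, had 0.363, 0.54 and 0.634 CPM in 2D and 18.7, 20.2 and 17.6 CPM in 3D. Vav3, an exchange factor that turns on small GTPases, had 0, 0 and 1.13 CPM in 2D and 15.1, 16 and 14.4 CPM in 3D. These 3 genes were near 0 in all attached libraries. Tmem100 (log2 4.73), a membrane protein, Nrep (log2 5.36), first found in regenerating nerve, and Gas7 (log2 4.35), first found in cells arrested in growth, followed. Among those lower in 3D, Tnfsf15, a cytokine of the TNF family, had 9.44, 11.2 and 10.8 CPM in 2D and 0.218, 0.0816 and 0.0747 CPM in 3D. Synpo2, which binds actin in muscle, had 18.8, 21.6 and 22.9 CPM in 2D and 0.49, 0.245 and 0.448 CPM in 3D. Epha2, a receptor for ephrins on touching cells, had 15.9, 20.2 and 15.9 CPM in 2D and 0.381, 0.163 and 1.05 CPM in 3D. In these 3 it was the spheroid libraries that were near 0 or far below the attached ones. Slc1a6 (log2 -5.60), a glutamate transporter, Rassf6 (log2 -5.19), of a family of Ras-binding proteins, and Acta1 (log2 -5.12), the actin of skeletal muscle, were lower as well. The rule also took genes that are given no name here. Of these, ENSMUSG00000074782 rose from 0.68 ± 0.201 CPM (SD, n = 3) in 2D to 25.8 ± 3.05 CPM (SD, n = 3) in 3D, with counts that were not whole in 8 libraries. ENSMUSG00000030468 fell from 76.6 ± 5.97 CPM to 1.01 ± 0.242 CPM (SD, n = 3).

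By length-scaled level (mean TPM), 4 of the 10 most abundant genes were in the top 10 of both cultures, namely Sparc, Ftl1, Col1a1 and Malat1. Sparc, a matricellular protein of bone and stroma, led the attached cells with 11292 ± 325 TPM in 2D against 10481 ± 286 TPM in 3D (SD, n = 3). Its small difference (log2 -0.25) lost its call under several settings, library totals among them (edgeR adjusted p = 0.21). The top 10 of the attached cells also held the actins Acta2, Actb and Actg1, the actin-binding Tmsb4x (log2 -1.39), Lgals1 and Ppia. That of the spheroids held Spp1, Fth1, Col3a1, Cd63 (log2 0.96), a membrane protein of lysosomes and exosomes, Serpinf1 (log2 0.26), a secreted inhibitor of vessel growth, and 1 gene without a name here. Serpinf1 was not called by limma on log2(TPM + 1) (log2 0.03; limma adjusted p = 0.86), nor without replicate 2 or 3 of 2D or replicate 2 of 3D (edgeR adjusted p = 0.07, 0.15 and 0.099).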

How the data were processed

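Total RNA of the 12 libraries was made into cDNA with a SMART-seq low-input kit and into stranded mRNA libraries, per the labels' protocols. The tools FastQC 0.11.9, STAR and RSEM and the build GRCm39 are named in the submitters' processing notes. The authors deposited expected counts per Ensembl gene ID and, as a second table, log2(TPM + 1). How strand was set in the counting is not given in the sources used here.

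Expected counts were rounded and tested with edgeR 4.0.16 (R 4.3.3; quasi-likelihood, TMM, filterByExpr with a minimum count of 10) in 1 model of the 4 groups of 3 libraries, with p-values adjusted by Benjamini-Hochberg over 14338 genes. The deposited log2(TPM + 1) values were tested with limma 3.58.1. Alternatives included DESeq2 1.42.0, other scalings and filters, a replicate block and leaving out each library. The self-test ran on simulated counts. A fold change against 0 counts used a floor of 3 counts in all for that group, and counting intervals are exact at 95%.

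No table used here pairs the IDs with names. The names were recalled from memory of the Ensembl catalogue for 966 IDs, 28 of them after their values had been seen. Lengths fitted the gene span for 875 of 877 that could be compared, which is only an upper bound, and 423 of 435 had an ID neighbour on the same chromosome. The tolerances were set after looking at these comparisons, and the names served as each other's neighbours, so these checks are not independent. Of the IDs in the scran 1.30.0 marker set, the names matched as given in the results.

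The members and gene lists were chosen with earlier results of these data known, so no list is independent support and none was given a test. Genes were named by rule: the 15 called genes that rose most and the 15 that fell most, with at least 10 CPM in the higher group and no overlap of the libraries, up to 4 called members of each list in each direction, the 10 most abundant genes of each group and all cell type markers. Chosen after their values were seen were Myl9, Tagln, Flna, Tpm1, Vcl, Srf, Mrtfa, Ccn1, Yap1, Tead1, Cav1, Loxl2, Col4a1, Col4a2, Fn1, Postn, Col6a1, Col6a2, Mmp2, Mmp14, Timp1, Timp2, Lamp2, Tfeb, Tfe3, Ulk1, Becn1, Atp6v0a1, Atp6v0a2, Tcirg1, Ctsa, Atp6v1a, Nrarp, Lef1, Axin2, Vegfa, Ldha, Slc2a1, Hspa5, Cnn2, Cdc20, Bmf, Isg15, Ifit1 and Ccnd2. Fhl2 was named for its promoter match alone. The tables came from the deposited files; promoter letters came from RefSeq on GRCm38.p6, another build than that of the files, and were matched by name alone. No histone gene of the list fixed for them was named, so that list has no result. A few genes that the naming rule took are not reported here.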

Additional observations from a re-analysis of the deposited data

Results flagged for a closer look

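The difference between spheroids and attached cells was itself different at 24 h and at 0 h for 5610 genes by a test of that difference (edgeR, adjusted p under 0.05), which is 39.1% of the genes tested. Among the 292 genes that the naming rule took and that were tested, 230 differed between the times. The rule took most of them for large fold changes at 24 h, which are part of that difference. The 230 are therefore not to be read against the 39.1%. Of these, 22 with a mean of at least 100 CPM were called in opposite directions at the 2 times. Without that floor on CPM, 950 of all 14338 tested genes were called in opposite directions, so the 22 do not set the named genes apart. Of the 22, the 12 with the largest difference are given as the log2 fold change at 24 h minus that at 0 h.

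Genes that respond to oxygen shortage or serve glycolysis had a lower fold change of spheroids over attached cells at the later time. Whether the spheroids or the attached cells changed between the times was not tested. The difference was -5.28 for Adm, -4.48 for Egln1, -3.40 for the hexokinase Hk1, -3.16 for the lactate exporter Slc16a3 and -2.89 for the phosphofructokinase Pfkl. The mitotic kinesin Kif20a had -3.44. Of matrix genes, Adamts1 had -3.05 and the basement membrane protein Nid2 -2.73, and the Wnt antagonist Sfrp1 had -2.53. In the other direction stood Tgfb1 at 3.88 and the BMP targets Id1 at 2.63 and Id3 at 2.59. Counts of Kif20a, Slc16a3 and Nid2 were not whole in most libraries. The groups of 3 libraries are too small for a test of single outlying samples.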

How the results depend on the processing

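Under all alternatives the counts of genes at 24 h stayed within 1.5 times of those reported, between 2217 and 3648 higher and between 2664 and 3266 lower. Library totals gave 3648 higher and 2708 lower, with 42.6% of the calls lower against 53.8% with TMM, and upper-quartile scaling gave 3235 and 2953. DESeq2 called 3100 higher and 3266 lower. Leaving out 1 library at a time gave 2217 to 3014 higher, the fewest without replicate 3 of 2D, and 2664 to 3044 lower. The difference between the times was called for 5674 genes with library totals. With the replicate number as a block the counts were 2599 higher, 3082 lower and 5134 differing between the times. The labels do not say whether the numbers pair the libraries. Deviations of same-numbered libraries at 24 h from their group means correlated at -0.234, -0.121 and -0.0331. Such deviations cancel out within a group of 3 libraries, so these values cannot settle the question. Of 4944 values of named genes under the alternatives, 4820 kept their direction and side of the threshold, 122 of 26 genes lost their call, 2 gained one and none reversed.

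The counts of members held their majority direction under each of these settings for the contractile, YAP and TAZ, caveolar, mitotic, replication, cholesterol, lysosomal and vacuolar ATPase lists, with 21 to 25 contractile, 14 to 15 YAP and TAZ, 29 mitotic and 17 to 19 cholesterol genes lower and 21 to 24 lysosomal and 14 to 15 vacuolar ATPase genes higher. p53 targets called lower ranged from 3 to 7. Counts under 3 in a group, as for Nrarp and Atp6v0d2, limit the size of a fold change.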

Other observations

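Several lists outside the main account held named genes with clear differences. Of 18 p53 targets, 5 were higher and 7 lower, of which 3 or 4 were called lower with library totals or upper-quartile scaling and without any 1 of replicates 2 and 3 of 2D or replicates 1 and 3 of 3D. Gadd45a, which slows the cycle after stress, had a log2 fold change of 2.07, and Gdf15, a stress cytokine, one of -1.94. Of 13 genes of the BCL2 family, 4 were higher and 2 lower. Bmf, which promotes cell death when cells lose attachment, had 0.817, 2.16 and 0.563 CPM in 2D and 5.56, 4.65 and 4.93 CPM in 3D. Its relative Bcl2l11, known as BIM, was higher (log2 1.12), and the protective Bcl2l1 was lower (log2 -0.63).

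Of 24 genes of the interferon response and antigen presentation, 7 were higher and 4 lower at 24 h, and 14 were higher and 0 lower at 0 h. Isg15, a ubiquitin-like protein, had a log2 fold change of -1.47, and Ifit1 one of 0.92. Of 18 clock genes, 6 were higher and 2 lower at 24 h, with a median of -0.02, and 13 were higher and 3 lower at 0 h, with a median of 1.23. Bhlhe41, a repressor in the clock, had 0.907, 2.43 and 1.97 CPM in 2D and 34.1, 29 and 25.6 CPM in 3D. Of 17 D cyclins, Myc factors and inhibitors of cyclin-dependent kinases, 2 were higher and 8 lower, with Mycl (log2 -3.30) and Ccnd2 (log2 -0.98) among the lower ones.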
